A study of Homo sapiens with 108 samples.

Results

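The comparison described here is the response of Colo679, an established human melanoma line, 3 h after X-irradiation. The 3 arrays labelled as Colo679 given 2 Gy of X-rays and collected at 3 h were set against the 3 arrays of unirradiated Colo679 (0 Gy) of the X-ray set, 6 of the 18 Colo679 arrays in a series of 6 lines with 18 arrays each. Total RNA of cultured cells was hybridised to a single-colour CodeLink array, and the values are spot intensities on a scale on which the median spot of an array is near 1. The same line was also sampled 1 h after 2 Gy of X-rays, and at 0 Gy, 1 h and 3 h after 2 Gy of carbon ions, with 3 arrays each. The other 5 melanoma lines (92-1, C32TG, HMV-I, HMV-II and MeWo) had the same design. The controls carry no time in the labels, and the labels leave unsaid if replicate arrays stem from different dishes, so each p-value measures the spread between arrays, which may be technical. Colo679 is a single line, so no statement extends to melanoma cells at large.

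Ionising radiation breaks DNA, and cells answer through the kinases ATM and ATR, which stabilise the transcription factor p53. p53 then activates genes that halt the cell cycle (CDKN1A, which encodes the CDK inhibitor p21), that restrain p53 itself (MDM2, PPM1D), that repair DNA (XPC, POLH) and that prepare apoptosis (FAS, BAX). Genes of the G2 phase and of mitosis are repressed when p21 holds the cycle, through the DREAM complex.

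The labelled lineage was checked first. Of 18 measured melanocyte lineage genes, 17 lay above the median spot in the unirradiated arrays, with mean normalised intensities of 446 for TYR, 555 for PMEL, 450 for MLANA and 126 for MITF. The probe for SOX10 was the exception, at 0.79. Of other cell types, 3 of 9 keratinocyte, 3 of 10 leukocyte and 6 of 11 fibroblast markers lay above the median spot, with list medians of 0.45, 0.69 and 1.13. KRT5 was at 0.29, PTPRC at 0.51 and COL3A1 at 0.42, whereas FAP stood at 37.4 and CD79A at 14.8. Arrays of the same group correlated with r = 0.994 to 0.997 over 22287 probes, and arrays of different groups with 0.988 to 0.993. Missing values numbered 2636 to 4517 per control array and 3096 to 6561 per irradiated array.

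Of 54359 probes, 32318 were bright enough to test. At an adjusted p under 0.05, 6250 probes (19.3%) differed from the controls, 3217 higher (9.95%) and 3033 lower (9.38%). The typical called probe moved by 0.39 on the log2 scale (median of absolute changes). Beyond 1.5-fold there were 144 higher and 793 lower probes, and beyond 2-fold 10 higher and 70 lower. The share of calls that were higher depended on the scaling between arrays. It was 51.5% here, 27.5% without normalization between arrays (4836 calls), 61.2% after median centring (6294 calls) and 25.5% with a quantile step over all measured values (5335 calls). Of 13601 named genes, 20.4% were called: 1496 were higher (11%) and 1285 lower (9.45%), with a median change over all of them of 0.02.

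**Figure D1:**
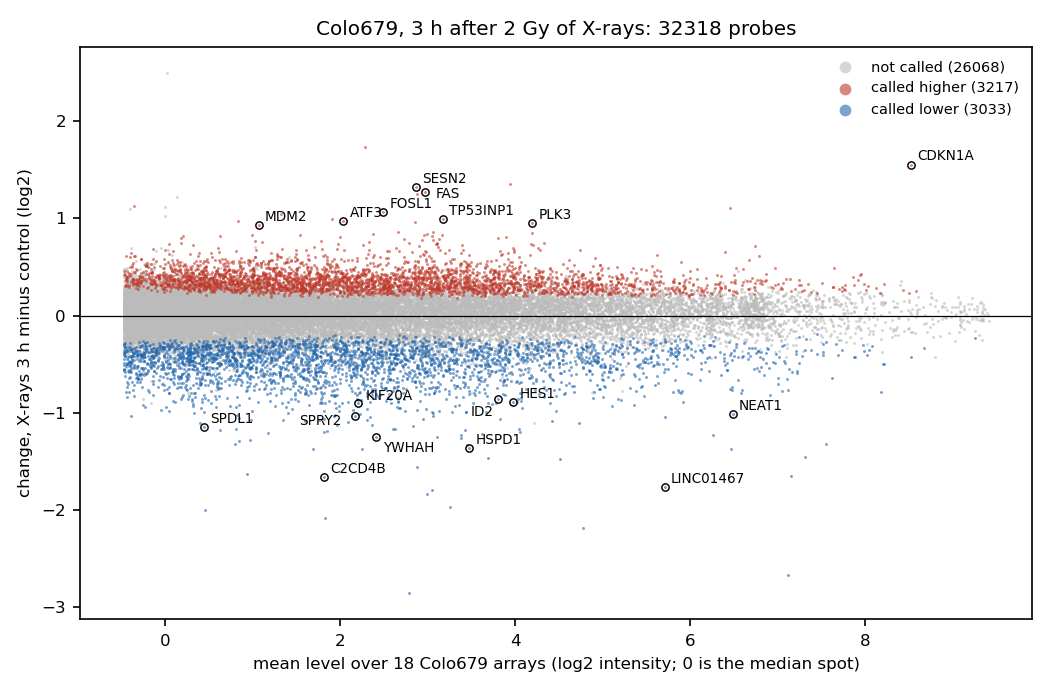
Change 3 h after X-rays (log2, irradiated minus control) against the mean log2 intensity over the 18 Colo679 arrays, for 32318 probes, with 3217 called higher in red, 3033 called lower in blue and the rest in grey. CDKN1A stands apart at the bright end with a change of 1.55, and more probes lie below -1 than above 1.

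Genes had to be read with their other probes in view. Among 364 genes called higher that had another tested probe, another probe was called in the same direction for 54 and in the opposite direction for 27. Among 227 called lower, another probe was called lower for 48 and higher for 16. The probe that stands for a gene is the brightest on average, and other probes are given for the genes the results turn on.

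The largest rises were led by p53 targets. CDKN1A had normalised intensities of 206, 216 and 218 in the 3 control arrays and 614, 631 and 629 in the 3 irradiated arrays, a change of 1.55 on the log2 scale (SE 0.09, 2.93-fold, adjusted p = 2e-08). The groups lay far apart, and the 3 irradiated arrays differed by only 0.04 on the log2 scale. Before normalization between arrays, the CDKN1A spot of the irradiated arrays was within 0.17 to 0.28 log2 units of the brightest spot of its array, against 1.70 to 1.82 in the controls, and the part of this ceiling in the size of the rise was not tested.

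SESN2, a sestrin that restrains mTORC1 signalling, had intensities of 4.71, 5.07 and 4.65 in controls and 12.4, 11.6 and 12 after irradiation (log2 change 1.32, SE 0.07, adjusted p = 1.79e-09). FAS, the death receptor, went from 5.71, 5.37 and 5.82 to 13.0, 14.3 and 13.5 (log2 change 1.27, SE 0.10, adjusted p = 5.56e-07). A second, dimmer FAS probe was also called, with a change of 0.80. PLK3, a stress-responsive polo-like kinase, went from 13.6, 14 and 15.5 to 30.8, 25.4 and 27.1 (log2 change 0.95, SE 0.09, adjusted p = 8.98e-06). The groups did not overlap in 2746 of the 2781 called named genes (98.7%), and the genes named among the largest rises and falls were chosen from these.

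The promoters of these 4 genes are shown because they rose together. Among the members of the p53 lists they had the largest rises apart from TP53INP1, whose promoter is not shown, and each sequence is the stretch of 250 bases before the RefSeq start (GRCh38.p14, all on the + strand): CDKN1A at chr6:36678464-36678713, SESN2 at chr1:28259268-28259517, FAS at chr10:88990548-88990797 (the first of 3 listed starts) and PLK3 at chr1:44800127-44800376. Capitals mark GGGCGG, the GC box, on either strand.
CDKN1A: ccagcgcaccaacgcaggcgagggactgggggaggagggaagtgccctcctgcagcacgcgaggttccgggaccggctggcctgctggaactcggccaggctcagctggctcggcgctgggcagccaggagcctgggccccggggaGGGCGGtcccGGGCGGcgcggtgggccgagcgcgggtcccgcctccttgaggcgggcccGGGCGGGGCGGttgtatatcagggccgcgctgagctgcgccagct
SESN2: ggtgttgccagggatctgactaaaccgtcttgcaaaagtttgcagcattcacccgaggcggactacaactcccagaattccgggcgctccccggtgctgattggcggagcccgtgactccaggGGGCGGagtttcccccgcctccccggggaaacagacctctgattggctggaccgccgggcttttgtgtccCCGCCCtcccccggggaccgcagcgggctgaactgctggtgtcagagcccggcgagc
FAS: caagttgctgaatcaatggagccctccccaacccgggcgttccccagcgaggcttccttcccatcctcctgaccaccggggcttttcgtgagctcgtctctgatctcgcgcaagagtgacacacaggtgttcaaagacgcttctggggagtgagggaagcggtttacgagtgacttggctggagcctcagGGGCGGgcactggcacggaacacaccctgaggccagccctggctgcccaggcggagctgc
PLK3: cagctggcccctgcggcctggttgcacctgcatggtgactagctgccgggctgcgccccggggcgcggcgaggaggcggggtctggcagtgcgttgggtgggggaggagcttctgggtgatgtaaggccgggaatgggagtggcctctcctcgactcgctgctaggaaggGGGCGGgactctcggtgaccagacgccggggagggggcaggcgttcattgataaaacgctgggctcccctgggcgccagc
CDKN1A held 4 GC boxes, of which 2 overlap, SESN2 held 2, and FAS and PLK3 held 1 each. The p53 consensus unit, which reads the same on both strands, did not occur in these 4 windows, which says nothing of binding. Over 35116 promoter windows of the same length, 42.6% held a GC box and 5.57% the p53 consensus unit. Of the 19 p53 targets called higher, 15 had an entry, and 12 of these held a GC box and 1 the consensus unit.

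Across the lists of p53 targets, 38 of 42 genes were measured, and 19 were called higher and 1 lower, against 11% and 9.45% of all named genes. The median change of the 38 was 0.31, against 0.02 for all named genes. The split by role was uneven. Of 17 measured targets for cell cycle and growth arrest, 11 were higher and 1 lower, with a median of 0.57. Of 14 targets for feedback, repair and nucleotide supply, 9 were higher and 1 lower, with a median of 0.38. Of 12 death receptors and apoptosis genes, 1 was higher, which was FAS, and none lower, with a median of -0.04. These 12 include GDF15, whose spot was at the top of the scale, and what this did to its change was not tested. Some genes stand in more than 1 of these lists. BTG2, FDXR, TNFRSF10C and BBC3 could not be tested.

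**Figure D2:**
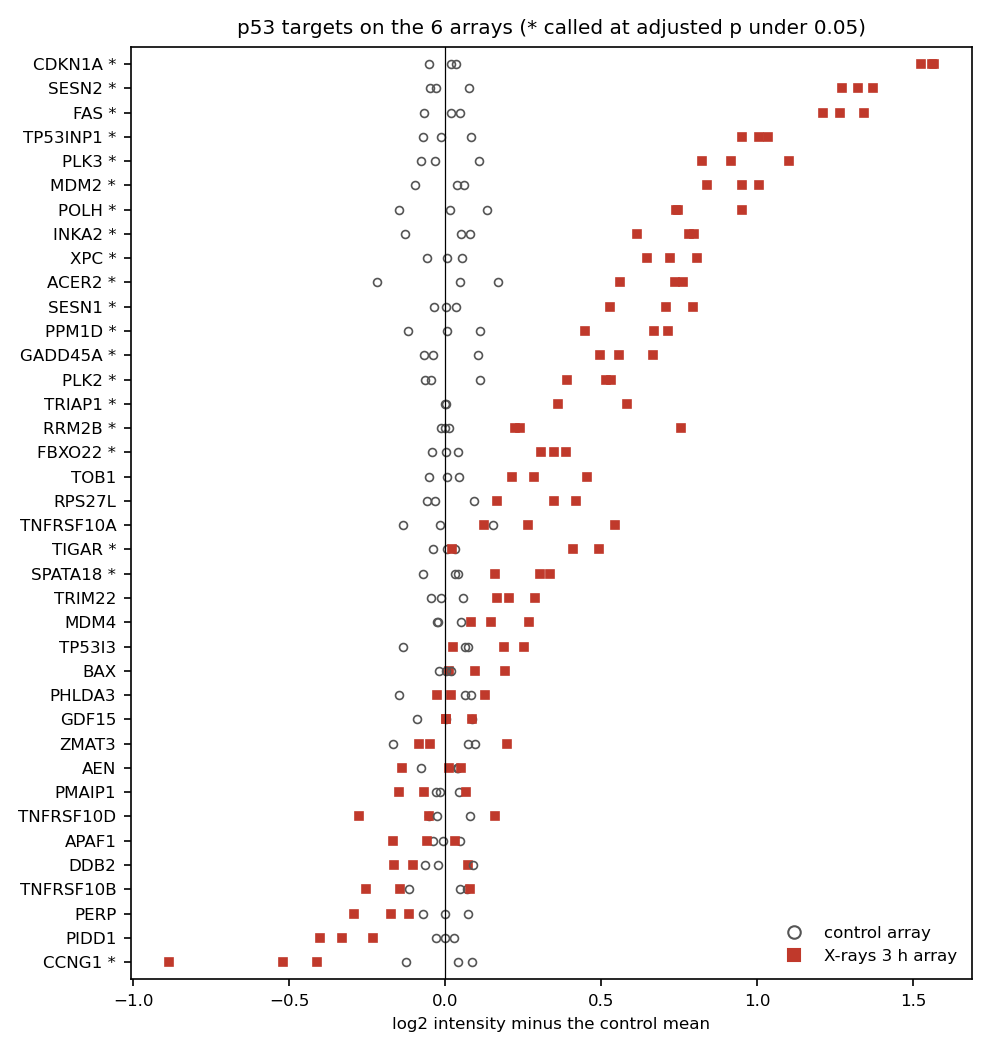
Log2 intensity of 38 p53 targets minus the control mean on each of the 3 control arrays (open circles) and the 3 irradiated arrays (red squares), ordered by change, with a star where the adjusted p is under 0.05. From CDKN1A at 1.55 down to FBXO22 at 0.35 the irradiated arrays lie above the controls, while GDF15, ZMAT3 and BAX overlap them.

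Among the genes of growth arrest, TP53INP1, which promotes p53 activity and autophagy, rose by 1.00 (SE 0.08, adjusted p = 1.25e-06), from 6.00, 6.41 and 5.75 to 11.7, 12.4 and 12.1. The second sestrin, SESN1, rose by 0.68 from 16.1, 15.8 and 15.3 to 22.7, 27.3 and 25.7. GADD45A, which blocks CDK1, was bright already without irradiation, at 77.3, 87.0 and 78.7, and reached 114, 119 and 128 (log2 change 0.57, SE 0.08, adjusted p = 0.000327). PLK2 rose by 0.48, ACER2, an alkaline ceramidase, by 0.69, and INKA2, an inhibitor of the kinase PAK4, by 0.73. INKA2 had other probes that disagreed, one called at 0.99 and one at 0.00.

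In the feedback arm, MDM2, the ubiquitin ligase that removes p53, went from 1.46, 1.63 and 1.6 to 3.13, 3.02 and 2.80 (log2 change 0.93, SE 0.07, adjusted p = 3.75e-07). PPM1D, the phosphatase that switches off the damage kinases, rose by 0.61 from 2.97, 3.20 and 2.72 to 4.03, 4.70 and 4.85. FBXO22 rose by 0.35 (adjusted p = 0.00409); 1 of its other probes was called at 0.56 and 1 was at 0.04. CCNG1, a cyclin and p53 target, ran the other way, from 33.1, 34.1 and 29.5 to 17.4, 24.2 and 22.4 (log2 change -0.61, SE 0.20, adjusted p = 0.0381). The CCNG1 call was lost without any of 5 of the 6 arrays in turn, with adjusted p up to 0.152.

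The repair genes that rose were POLH, the translesion polymerase, by 0.81 (SE 0.12, adjusted p = 0.0003), and XPC, the sensor of nucleotide excision repair, by 0.72 (SE 0.09, adjusted p = 5.73e-05). XPC went from 13.9, 15.0 and 14.5 to 25.3, 22.6 and 23.8, and its dimmer second probe was at 0.20 and not called. RRM2B, the p53-inducible subunit of ribonucleotide reductase, rose by 0.41, with 1 irradiated array at 22.9 and the other two at 15.8 and 16.0 against 13.4 to 13.7 in controls. Its call was lost without irradiated array 1 and in 5 other settings (adjusted p up to 0.199). TRIAP1, an inhibitor of caspase activation, rose by 0.47 on 2 values a group. SPATA18, a factor of mitochondrial quality control, rose by 0.27, and this call was lost in 8 settings (adjusted p up to 0.222). TIGAR, a regulator of glycolysis, was called at 0.31 although 1 irradiated array, at 37.5, lay among the controls at 36 to 37.8; its second probe rose by 0.80 (adjusted p = 8.98e-06).

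Several well-known p53 targets did not pass the test 3 h after X-rays. The changes were 0.10 for BAX (adjusted p = 0.352; its other probes 0.10 and -0.24), 0.02 for ZMAT3 (0.922), -0.02 for AEN (0.879), -0.05 for PMAIP1 (0.78), -0.06 for DDB2 (0.659) and -0.11 for TNFRSF10B (0.597; its other probe 0.05). PHLDA3, an inhibitor of AKT, was at 0.04 on its brighter probe (adjusted p = 0.812) and at 0.49 on another, which was called. GDF15, a secreted stress cytokine, was at 0.03, but its spot was at the top of the scale: within 0.07 to 0.35 log2 units of the brightest spot of each control array, and itself the brightest spot of irradiated array 3. Before normalization between arrays, GDF15 read 593, 614 and 711 in controls and 799, 751 and 740 after irradiation, without overlap. The brightest spots ran from 621 to 784 on the control arrays and from 740 to 872 on the irradiated arrays. What the top of the scale and the normalization did to the change of 0.03 was not tested, and that change is no sign that GDF15 did not respond.

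FOSL1, an AP-1 subunit, was the largest rise among 19 measured immediate early genes, from 4.56, 4.39 and 4.51 to 9.81, 8.64 and 9.77 (log2 change 1.07, SE 0.08, adjusted p = 4.57e-07). Its dimmer second probe was at 0.21 and not called (adjusted p = 0.108). ATF3, a stress-induced repressor that p53 also activates, went from 2.23, 2.62 and 2.63 to 4.20, 4.89 and 5.62 (log2 change 0.97, adjusted p = 5.73e-05). The list did not move as a whole: 3 genes were higher and 4 lower, against 11% and 9.45% of all named genes, with a median of 0.00. FOS fell by 0.64, from 3.21 to 3.24 in controls to 1.82 to 2.45, and KLF10 fell by 0.75 (adjusted p = 0.00152). EGR1 was at -0.06 and JUN at 0.00, neither called.

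The other rises among the 12 largest were EPHA2, an ephrin receptor and p53 target in some cells (0.96, SE 0.06, adjusted p = 3.84e-08), the divergent transcript ZNF594-DT (1.25, SE 0.08), ZNF79 (0.84) and CABYR, a calcium-binding protein known from sperm (0.82, SE 0.11). EPHA2 went from 5.29, 4.88 and 5.46 to 10.2, 10.5 and 9.64. Among 18 measured NF-kB targets and regulators, 2 were higher and 2 lower, near the 11% and 9.45% of all named genes, with a median of -0.04. CCL2, the monocyte chemokine, went from 5.87, 6.34 and 6.37 to 12, 10.3 and 8.59 (log2 change 0.72, adjusted p = 0.000768). CXCL8 rose by 0.39, NFKBIZ fell by 0.58 and the ubiquitin ligase BIRC2 fell by 0.43, a call lost without irradiated array 1 or control array 2 (adjusted p up to 0.103).

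Genes of mitosis and G2 fell more often than they rose. Of 35 measured, 11 were lower and 1 higher, against 9.45% and 11% of all named genes, and the median change was -0.19. SPDL1, which recruits dynein to kinetochores, went from 1.85, 2.31 and 2.08 to 0.69, 1.08 and 1.11 (log2 change -1.14, SE 0.18, adjusted p = 0.000526). KIF20A, a kinesin of cytokinesis, went from 5.87, 5.99 and 5.01 to 2.77, 3.20 and 3.10 (log2 change -0.89, SE 0.19, adjusted p = 0.00388). The checkpoint kinase BUB1 fell by 0.74, BUB1B by 0.60 and TTK by 0.59. TOP2A, the topoisomerase that untangles chromosomes, fell by 0.68, and TPX2, the activator of Aurora A, by 0.57. PIF1, a DNA helicase of late S and G2, fell by 0.66, and its second probe by 0.92. The kinesins KIF18A (-0.36), KIF23 (-0.30) and KIF11 (-0.29) fell less, and each of these calls was lost in 5 or 6 other settings. TOP2A and TPX2 narrowly lost their calls without irradiated array 1 (adjusted p = 0.0528 and 0.0517), and BUB1B without irradiated array 3 or control array 2 (up to 0.0771).

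Not all genes of this list moved. HMMR, a spindle protein, was called higher at 0.22 (adjusted p = 0.0326), a call lost in 7 settings. CCNB1, cyclin B1, went from 83.5 to 84.9 in controls to 72.6 to 74.0, a change of -0.19 that did not pass (adjusted p = 0.234). PLK1 at 0.05, with another probe at -0.30, and CDC20 at -0.09 were not called either. AURKA had separate groups, 63.2, 62.9 and 59.2 against 33.8, 36.6 and 38.1, but 1 carbon-ion control array listed it at 0.58 and the others of that group at 59.1 and 47.9, and the spread shared by all 18 arrays left the change of -0.77 uncalled (SE 1.01, adjusted p = 0.631). With only the 6 arrays of the comparison in the fit, 18 genes of the list were lower. That fit also called more probes lower over the whole array, 3650 against 3033.

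Of 25 measured genes of G1/S and DNA replication, 8 were lower and 1 higher, against 9.45% and 11% of all named genes, with a median of -0.18. CDC45, part of the replicative helicase, went from 16.1, 14 and 15.5 to 6.42, 10.1 and 8.34 (log2 change -0.90, SE 0.18, adjusted p = 0.00253). CCNE1, cyclin E1, fell by 0.64 from 7.85, 8.34 and 7.86 to 5.26, 4.79 and 5.42 (adjusted p = 0.000234). PCNA, the sliding clamp, fell by 0.67, and ORC1 of the origin recognition complex by 0.61. Of 10 measured histone genes, 4 were higher and none lower, with a median of 0.17. H2BC4 rose by 0.46 and H2BC21 by 0.41, and the calls of H4C8 and H2BC5, both at 0.30, were lost in 7 settings each. Of 21 genes of damage sensing and break repair, only XRCC6, which encodes Ku70, was called on its brightest probe. It went from 378, 382 and 331 to 234, 267 and 269 (log2 change -0.50, adjusted p = 0.00193). Dimmer probes of XRCC2 (-0.54), PRKDC (-0.70), ATM (-0.62) and DCLRE1C (-0.36) were called lower, and 1 of NBN (0.40) higher.

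**Figure D3:**
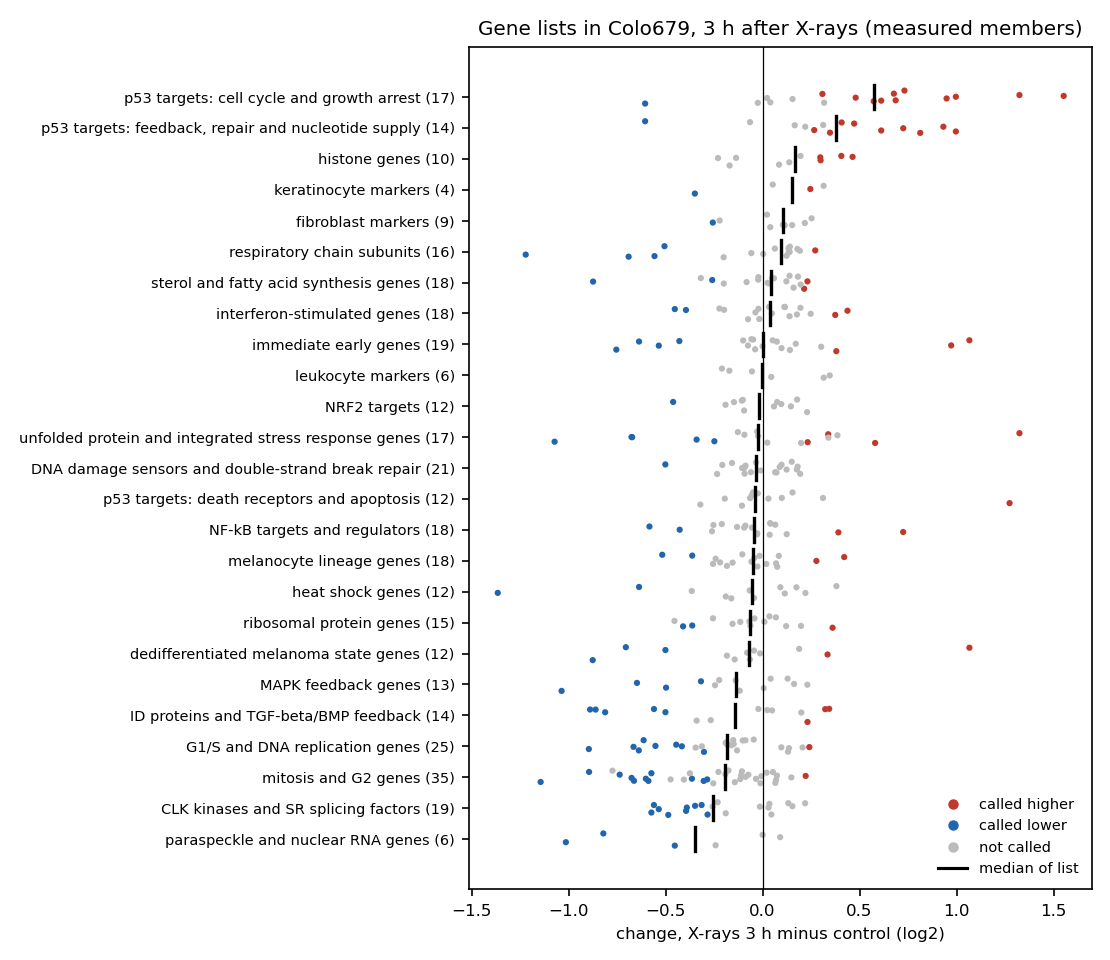
Change 3 h after X-rays (log2) of the measured members of 25 gene lists, with called members in red or blue, others in grey and the list median as a black bar. The p53 lists for growth arrest (median 0.57) and for feedback and repair (0.38) lie highest, and the paraspeckle list (-0.35) and the splicing list (-0.26) lowest.

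Splicing genes were among those lower after irradiation. Of 19 CLK kinases and SR splicing factors, 9 were lower and none higher, against 9.45% and 11% of all named genes, with a median of -0.26. SRSF4 went from 41.5, 42.6 and 37.2 to 24.6, 29.5 and 29.8 (log2 change -0.54, SE 0.11, adjusted p = 0.00234). SRSF10 fell by 0.57 and its second probe by 0.31, and RBM39 fell by 0.49, a call lost without any of 4 arrays in turn (adjusted p up to 0.0927). SRSF1 fell by 0.56 on its brightest probe and by 1.04 on another, while a dim probe was at 0.38 and not called. SRSF3 was called lower at -0.39 on its brightest probe and higher on 2 others, at 0.45 and 0.35, so no direction can be given for that gene. NEAT1, the nuclear RNA on which paraspeckles form, went from 111, 127 and 124 to 56.1, 66.5 and 57.4 (log2 change -1.01, SE 0.16, adjusted p = 0.00059), and its dimmer probe fell by 0.39. The paraspeckle protein SFPQ fell by 0.82, from 3.79, 3.85 and 3.41 to 1.83, 2.46 and 2.00. Of 6 measured genes of that list 3 were lower and none higher.

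Some feedback genes of growth-factor signalling were lower. SPRY2, a Sprouty inhibitor of receptor tyrosine kinase signalling, went from 7.81, 7.66 and 6.62 to 3.18, 4.0 and 3.6 (log2 change -1.04, SE 0.19, adjusted p = 0.0014). SPRY1 fell by 0.65, DUSP6, the ERK phosphatase, by 0.50 and SPRED2 by 0.32; a second SPRED2 probe was at 0.25 and not called. Of 13 measured MAPK feedback genes 4 were lower and none higher, against 9.45% and 11% of all named genes, with a median of -0.14. SPRY2, SPRY1 and DUSP6 were already lower at 1 h, by 1.04, 0.95 and 1.11 (adjusted p = 0.0113, 0.0101 and 0.000131). DUSP6 then stood higher at 3 h than at 1 h by 0.61 (adjusted p = 0.0131), whereas SPRY2 differed by 0.00 (adjusted p = 0.996). The DUSP6 call at 3 h was lost without irradiated array 1 (adjusted p = 0.0554), that of SPRY1 without irradiated array 1 or control array 1 (up to 0.0664), and that of SPRED2 in 5 settings (up to 0.175).

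HES1, the Notch-responsive repressor, had intensities of 20.1, 20.2 and 20.1 in controls and 9.21, 11.5 and 12.1 after irradiation (log2 change -0.89, SE 0.09, adjusted p = 1.04e-05). ID1, ID2 and ID3, which block differentiation factors downstream of BMP signalling, fell too. ID2 went from 16.9, 15.3 and 15.6 to 8.18, 9.24 and 8.87 (log2 change -0.86, SE 0.10, adjusted p = 3.77e-05), while 1 of its other probes fell by 0.83 and 1 was at -0.04. ID1 fell by 0.81 and ID3 by 0.56. The list as a whole went both ways: of 14 measured genes 5 were lower and 3 higher, against 9.45% and 11% of all named genes, with a median of -0.14. HES1 was lower by 0.85 at 1 h already, and ID2 was not, at 0.29 (adjusted p = 0.167).

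**Figure D4:**
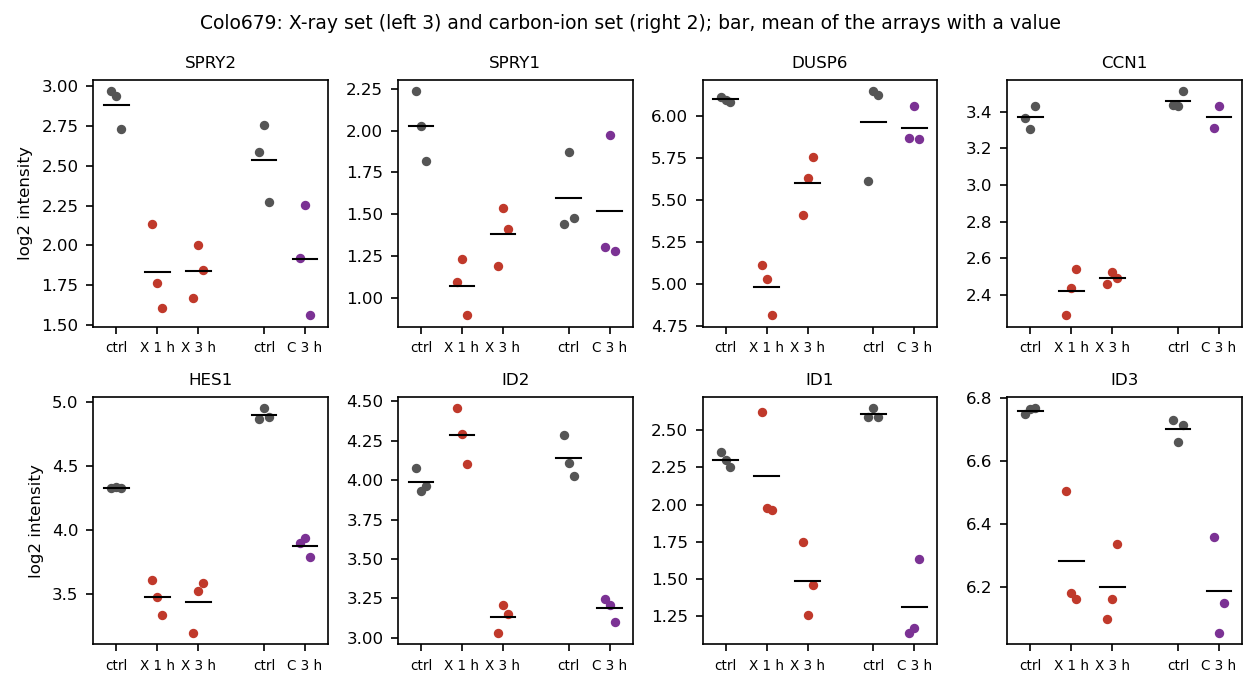
Log2 intensity of 8 genes on each Colo679 array, with unirradiated controls in grey, X-rays at 1 h and 3 h in red, carbon ions at 3 h in purple and a bar at the mean. SPRY2, SPRY1, DUSP6, CCN1 and HES1 are lower at 1 h after X-rays, ID2 at 3 h but not at 1 h, and CCN1 stays near its controls after carbon ions.

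CCN1, a matricellular YAP target, went from 10.3, 9.90 and 10.8 to 5.51, 5.77 and 5.62 (log2 change -0.88, SE 0.07, adjusted p = 1.85e-06). CCN2 fell by 0.50 and the matrix protein TNC by 0.70. Of 12 genes of the dedifferentiated melanoma state 3 were lower and 2 higher, against 9.45% and 11% of all named genes. The melanocyte lineage list had 2 higher and 2 lower of 18, near those shares, with a median of -0.05. SLC45A2, a melanosome transporter, rose by 0.42 on its brightest probe and fell by 0.39 on another, so no direction can be given for it. RAB27A, which moves melanosomes, rose by 0.28, TYRP1 fell by 0.36 and MIA by 0.52, and these 3 calls were lost in 2 to 4 settings (adjusted p up to 0.162).

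Stress and metabolic lists went both ways or had few calls, against 11% higher and 9.45% lower among all named genes. Of 17 genes of the unfolded protein and integrated stress response 4 were higher, SESN2 among them, and 5 lower, with a median of -0.02. HERPUD1 fell by 1.07 on its brighter probe, from 2.86, 3.01 and 2.97 to 1.49, 1.52 and 1.21, while its dim probe was at 0.12. DNAJB9 fell by 0.67 and PSAT1 by 0.68. Of 12 heat shock genes 2 were lower, HSPD1 and HSP90AA1, and none higher. HSP90AA1 fell by 0.64 on its brightest probe and was at 0.04 on another. Of 18 interferon-stimulated genes 2 were higher, MX1 at 0.44 and PSMB9 at 0.37, and 2 lower, BST2 at -0.45 and IFIT2 at -0.39. Of 18 sterol and fatty acid synthesis genes 2 were higher and 2 lower, with MSMO1 at -0.87 the largest. The calls of IDI1 and INSIG1 (higher) were each lost in 10 settings and that of FASN (lower) in 8, with adjusted p up to 0.309. Of 16 respiratory chain subunits 4 were lower and 1 higher, and of 15 ribosomal protein genes 2 were lower and 1 higher. Of the other genes named here, the calls of BST2, IFIT2, MSMO1, PSMB9, PSAT1, COX6C and PIR were each lost in 1 or more settings. The highest adjusted p among these was 0.209 for IFIT2. COX6C fell by 0.69 on 1 probe and rose by 0.45 on another. PIR was the only 1 of 12 NRF2 targets that was called, at -0.46.

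The 12 largest falls among named genes were less even between arrays than the 12 largest rises. In 8 of the 12 falls the 3 irradiated arrays spanned more than 0.7 on the log2 scale, against none of the 12 rises, and in 8 of the 12 irradiated array 2 fell least. LINC01467, a long noncoding RNA, went from 87.3, 98.7 and 89.4 to 20.5, 67.4 and 14.2 (log2 change -1.77, SE 0.49, adjusted p = 0.0168). Array 2 thus lay near the controls and arrays 1 and 3 far below them, and the call was lost without irradiated array 1, irradiated array 3 or control array 2 (adjusted p up to 0.092). LOC101927166 (-1.47), ZNF738 (-1.46), GAS6-DT (-1.23) and PRAF2 (-1.20) were also highest on array 2 among the irradiated arrays, and so were C2CD4B and LOC101928626. ZNF738 had a second probe at 0.28, not called. The source of this difference between arrays was not tested.

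C2CD4B, an inflammation-induced nuclear factor, went from 8.50, 6.35 and 5.53 to 1.92, 3.08 and 1.61 (log2 change -1.66, SE 0.22, adjusted p = 0.000152), and LOC101928626 fell by 1.62 (adjusted p = 0.00123). HSPD1, the mitochondrial chaperonin, went from 20.5, 19.8 and 18.7 to 7.03, 8.79 and 7.19 (log2 change -1.36, SE 0.19, adjusted p = 0.000275). YWHAH, a 14-3-3 protein, went from 6.06, 7.17 and 6.18 to 3.20, 2.13 and 2.93 (log2 change -1.25, SE 0.18, adjusted p = 0.000373). The 3 irradiated arrays spanned 0.32 on the log2 scale for HSPD1 and 0.59 for YWHAH, against 0.93 for C2CD4B. TMEM208, an ER membrane protein, fell by 1.32, and CYCS, cytochrome c, by 1.22. UBE2G2, a ubiquitin-conjugating enzyme of the ER, fell by 1.20 on its brighter probe and was at 0.02 on another.

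Some leading genes rose further between 1 h and 3 h. Against the 1 h arrays, 658 probes differed at 3 h (2.04%), 260 higher (0.804%) and 398 lower (1.23%). Of 37 p53 targets measured in this comparison, 12 were higher at 3 h than at 1 h and none lower, with a median of 0.22; over all named genes 1.11% were higher. The largest differences were FAS at 1.21, SESN2 at 1.11, FOSL1 at 1.10 and CDKN1A at 1.05. FAS stood at 5.21, 6.30 and 6.24 at 1 h, near its controls, and SESN2 at 5.37, 5.78 and 5.55. CDKN1A was already higher at 1 h, at 277, 329 and 302 (log2 change 0.50, adjusted p = 0.0162). Among lower genes LOC101927166 (-1.51), ZNF738 (-1.44), C2CD4B (-1.27) and LOC101928626 (-1.19) differed most; without 1 array, the calls of LOC101927166 and ZNF738 were each lost in 5 settings and that of LOC101928626 in 4, with adjusted p up to 0.202. This count fell to 256 without irradiated array 3 of the 3 h group and to 300 without array 1 of the 1 h group.

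Carbon ions, a densely ionising beam, gave Colo679 a change at 3 h of similar extent, with 5895 of 32383 probes called (18.2%), 10.1% higher and 8.12% lower. The count rested partly on single arrays: it was 2893 without carbon control array 1, 3255 without control array 2, 2919 without irradiated array 3 and 3730 without irradiated array 2. The carbon-ion set had its own controls, so the 2 changes share no array. Over 32299 probes the changes correlated with r = 0.508 (Spearman 0.51), a description across probes of 12 arrays normalised together. Of probes higher after X-rays 38% were also called higher after carbon ions, and 37.5% the other way round. For lower probes the shares were 33.9% and 39.1%. Opposite calls were made for 54 probes.

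In the leading p53 targets the rise after carbon ions was set beside that after X-rays. CDKN1A rose by 1.19 after carbon ions, SESN2 by 1.46, FAS by 1.15, PLK3 by 1.10 and MDM2 by 0.86, and of these 5 differences between beams the largest was that of CDKN1A, at 0.36 (SE 0.14, adjusted p = 0.207). Of 37 p53 targets tested for it, none differed between beams at an adjusted p under 0.05. Over all named genes only 0.206% had a higher and 0.589% a lower change after X-rays, so this count says nothing particular of p53 targets. It does not show that the beams act alike. Among the 17 targets of growth arrest, 15 were called higher after carbon ions against 11 after X-rays, where 10.1% and 9.95% of all probes were. The median of their differences was -0.19, and 2 of the 17 were above 0. The list of feedback, repair and nucleotide supply went the other way. There 7 of 13 were called higher after carbon ions and 9 of 14 after X-rays, and 9 of 13 differences were above 0, with a median of 0.08. Over all 37 targets 16 differences were above 0, with a median of -0.06. ZMAT3, AEN, PHLDA3, PMAIP1 and DDB2 were called higher after carbon ions, by 0.55, 0.50, 0.41, 0.40 and 0.27, and not after X-rays on the same probes. A dimmer PHLDA3 probe was called higher after X-rays, at 0.49. The differences between beams for these 5 genes ran from -0.33 (DDB2) to -0.53 (ZMAT3) with SE from 0.13 to 0.18. They did not pass, with adjusted p from 0.0612 for AEN to 0.207 for DDB2. SPRY1 and DUSP6 were at -0.08 and -0.03 after carbon ions, neither called, and their differences between beams did not pass either (adjusted p = 0.238 and 0.194). CCN1 was called as different between beams, with a difference of -0.79 (SE 0.11, adjusted p = 0.00919). It was at -0.09 after carbon ions, with 10.8, 10.8 and 11.4 in controls and 9.92 and 10.8 in the irradiated arrays with a value. Whether this CCN1 call held when single arrays were left out was not examined.

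Over all probes, 248 differed between beams (0.768%), 75 with a higher (0.232%) and 173 with a lower change after X-rays (0.536%). This count hung on single arrays, with 14 to 419 calls when any 1 of the 12 arrays was left out. The named genes with the largest differences were APH1A, a gamma-secretase subunit (-1.21), ACTG1, cytoplasmic gamma-actin (-1.10), the ESCRT factor IST1 (-1.17), the mannosyltransferase ALG1 (-1.16), and the tissue-restricted genes CTRC (1.27), KLK15 (0.93), TACR1 (0.90) and LHFPL5 (0.90). Except for IST1, these calls were lost when single arrays were left out. None of the 7 tested in each case was kept without X-ray control array 2, carbon-ion irradiated array 2 or carbon-ion irradiated array 3. IST1 was tested in only 4 such settings, and its difference stayed at -1.17 in them, so its call was not challenged. In several of these named genes the controls of the 2 sets differed. CTRC stood at 1.07, 1.03 and 1.19 in X-ray controls and at 2.01, 2.04 and 2.34 in carbon-ion controls, and at 1.12, 0.91 and 1.17 after carbon ions. APH1A stood at 2.10, 2.37 and 2.01 in X-ray controls and at 1.29, 1.32 and 1.37 in carbon-ion controls. ACTG1 instead had controls of 133 to 153 and 118 to 140, and stood at 75.5, 81.6 and 91.3 after X-rays and at 134, 178 and 149 after carbon ions.

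Set against the mean of the other 5 lines 3 h after X-rays, the change in Colo679 differed for 3957 of 32022 probes (12.4%), 1943 higher (6.07%) and 2014 lower (6.29%). This count was 2368 without Colo679 control array 1 and 2594 without control array 2, and 3337 to 4919 when 1 of the other lines was left out, an alternative added after the data were seen. The median change of the p53 targets was 0.31 in Colo679, 0.68 in 92-1, 0.50 in C32TG, 0.38 in HMV-II, 0.12 in HMV-I and 0.08 in MeWo. Of 39 p53 targets tested, 7 changed more upward in Colo679 than in the mean of the other lines: SESN2 (by 0.61), FAS (0.54), CDKN1A (0.44), SPATA18 (0.41), XPC (0.40), POLH (0.38) and MDM2 (0.34). The other way, 6 were called lower in Colo679. One of them, GDF15, was at the top of the scale there, so no size is given for it. The others were CCNG1 (-0.82), PHLDA3 (-0.60, brighter probe), PIDD1 (-0.52), DDB2 (-0.37) and PMAIP1 (-0.36). The dimmer PHLDA3 probe was called higher in Colo679 after X-rays, at 0.49.

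CDKN1A changed by 2.30 in 92-1, 1.74 in C32TG, 0.67 in HMV-II, 0.47 in HMV-I and 0.38 in MeWo, so Colo679 at 1.55 lay below 92-1 and C32TG and above the others. FAS at 1.27 in Colo679 stood near 92-1 at 1.19 and C32TG at 1.15. GDF15 rose most in 92-1, by 2.20, and by 1.36 in C32TG, against 0.03 in Colo679, where its spot was at the top of the scale. CCNG1 was at 0.72 in C32TG, 0.42 in HMV-II and 0.20 in 92-1 against -0.61 in Colo679. PHLDA3 was at 1.52 in 92-1 and 0.78 in C32TG on the same brighter probe.

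**Figure D5:**
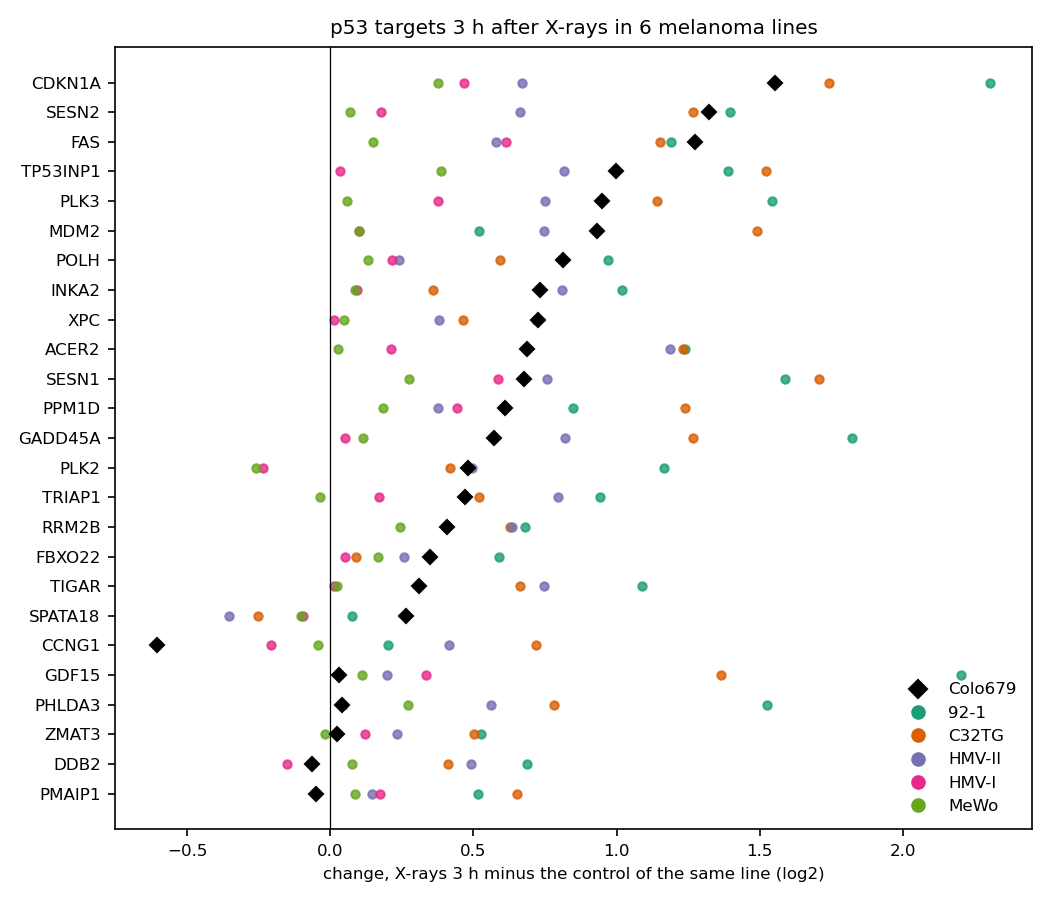
Change 3 h after X-rays (log2, against the control of the same line) of 25 p53 targets in Colo679 (black diamonds) and the other 5 lines (coloured circles). Colo679 lies with 92-1 and C32TG for SESN2 and FAS, near 0 for GDF15 and the brighter PHLDA3 probe, and lowest of the 6 lines for CCNG1 at -0.61.

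Outside the p53 targets, FOSL1 rose by 1.07 in Colo679 and lay between -0.17 and 0.60 in the other lines, a difference of 0.85 (SE 0.10, adjusted p = 1.24e-06). CABYR, at 0.82 in Colo679, lay between -0.15 and 0.33 elsewhere. ZNF793 went from 9.16, 10.6 and 11.5 to 14.3, 14.3 and 16.0 in Colo679 (log2 change 0.51) and lay between -0.96 and -0.09 in the other lines, a difference of 0.94 (adjusted p = 9.57e-07). YWHAH lay between -0.08 and 0.29 elsewhere (difference -1.28, adjusted p = 2.63e-05), HSPD1 between -0.41 and 0.19 (-1.20), C2CD4B between -0.55 and -0.21 (-1.29) and LOC101928626 between -0.54 and -0.10 (-1.29). HES1 lay between -0.20 and 0.42 elsewhere against -0.89 in Colo679, a difference of -1.05 (adjusted p = 6.89e-07). ID2 differed by -0.81, SPRY2 by -0.98 and SPRY1 by -0.78, all past the threshold. The splicing list had 5 of 19 members lower than in the mean of the other lines and none higher, against 8.75% and 5.98% of all named genes, with a median of -0.27. The mitosis list had 3 of 34 lower and 1 higher, near those shares, with a median of -0.12.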

How the data were processed

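Total RNA was biotin-labelled and hybridised to CodeLink single-colour arrays, per the labels. The authors' deposited table gives linear intensity, near 1 at the median spot; the software is not given in the sources used here. Groups follow the labels (line, beam, dose, time). Values were put on the log2 scale, and quantiles learned on 22287 probes with a value on every array of the series were applied to all values, since missing values fell on dim probes. Nothing was imputed. Printed intensities are normalised. limma (version 3.58.1, R 4.3.3; lmFit, eBayes with trend) was fitted to the 18 Colo679 arrays in 6 groups, or to 36 X-ray arrays for lines, with Benjamini-Hochberg adjustment over all tested probes at 0.05. Tested probes had 2 or more values per group and a mean above the 40th percentile (-0.47, log2). The pipeline was tested on simulated data.

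Of 24377 annotated probes, 23472 had 1 symbol and 905 several, and 29982 were unnamed; 23434 matched RefSeq. The kept probe with the highest mean stands for a gene. Named were the 12 largest rises and falls with groups that did not overlap, all called p53 and mitosis genes, up to 4 called genes of each of the other lists (25 lists, 461 genes) and up to 4 a direction for each difference; other genes were chosen after their values were seen. Members and lists were chosen with earlier results of these data known. The number of arrays limits precision: the median 95% interval was the change ± 0.21. Alternatives were 3 scalings, the filters, the replicate block, the variance trend, the 6 arrays alone and each array left out. Same-numbered control and irradiated arrays did not deviate together (r = 0.02, 0.01 and 0.01), against -0.138 to 0.133 for other pairs. With 3 arrays a group this cannot exclude pairing, and the main fit had no replicate block.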

Additional observations from a re-analysis of the deposited data

Results flagged for a closer look

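Differences between beams were flagged because the change after X-rays was tested against that after carbon ions, for 248 probes. For named genes the difference (X-rays minus carbon ions, log2) was 1.27 for CTRC, 0.93 for KLK15, 0.90 for TACR1, 0.90 for LHFPL5, -1.10 for ACTG1, -1.17 for IST1, -1.16 for ALG1 and -1.21 for APH1A. Every one of these calls except that of IST1 was lost when 1 array was left out in some setting: for TACR1 in 11 of 12 settings. IST1 was tested in only 4 settings, where its difference stayed at -1.17, so they did not challenge its call. A second TACR1 probe changed by 0.18 and a second IST1 probe by -0.06 after X-rays, neither called.

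Differences between lines were flagged because the change in Colo679 was tested against the mean of the other 5 lines, for 3957 probes. The difference was 0.94 for ZNF793, 0.85 for FOSL1, 0.83 for CABYR, 0.83 for CLCN5, -1.20 for HSPD1, -1.28 for YWHAH, -1.29 for C2CD4B and -1.29 for LOC101928626. CLCN5, a chloride transporter, rose by 0.51 in Colo679 on its brightest probe; its other probes changed by 0.34 (called), -0.14 and -0.26.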

How the results depend on the processing

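Of 107 gene calls named for X-rays at 3 h, none changed sign in any alternative, and 67 held in each alternative in which they were tested. Values as deposited gave 1329 higher probes, a mitosis median of -0.25 with 0 called higher, a p53 median of 0.27, 78 beam differences and 2051 line differences. The quantile step over all measured values gave 1360 higher probes, 0 mitosis genes higher, a p53 median of 0.26 and 825 beam differences. Median centring gave a p53 median of 0.35, 9844 carbon-ion calls and 626 beam differences. Beam differences numbered 117 with no filter on level and 110 with no variance trend. The 6 arrays alone gave 7273 calls over all probes, 3650 of them lower, with 18 mitosis genes and 2 p53 targets lower. The replicate block gave 6753 calls for X-rays at 3 h and 416 beam differences; TRIAP1 lost its call (adjusted p = 0.138). Leaving out 1 array gave 3452 to 4960 calls (lowest without control array 1; 3793 without control array 2), 1655 to 2520 higher and 1797 to 2440 lower; mitosis medians of -0.23 to -0.19 with 0 to 1 higher and 7 to 11 lower; p53 medians of 0.25 to 0.33 with 15 to 17 higher and 0 to 1 lower; and 2893 to 5958 carbon-ion, 14 to 419 beam, 256 to 799 time and 2368 to 3172 line calls. The causes were not tested. CDKN1A and GDF15 lay near the brightest spots, and what this did to their values was not tested.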

Other observations

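Calls were most frequent among probes of middle to high level. In the dimmest of 10 equal bands of tested probes (mean intensity 0.72 to 0.86) 2.57% were higher and 5.01% lower, against 15.8% and 12% in the band from 7.11 to 12.9, and 9.47% and 9.96% in the brightest band.

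Among marker genes of other cell types, the few calls were small: the fibroblast proteoglycan DCN fell by 0.26, KRT15 fell by 0.35 and KRT14 rose by 0.25, and these 3 calls were lost in 6 to 8 settings. Ribosomal protein genes went both ways, with RPL18 at -0.41, RPL3 at -0.36 and RPL27 at 0.36. The RPL27 call was lost with values as deposited and with median centring (adjusted p up to 0.197). PRKDC, the catalytic kinase of end joining, was at 0.07 on its brightest probe and fell by 0.70 on another, and ATM fell by 0.62 on a dim probe and was at -0.09 on its brightest.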
